A study of Mus musculus with 2 samples.

Results

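The plasma protein genes of hepatocytes comprised 37 genes, of 18111 annotated genes with at least 1 read in the series. They were a named list matched by gene symbol. The list was chosen by measured values, namely the higher read counts of hepatocyte genes in 1 of the 2 libraries, so the difference between the libraries is given for the members as a description and with no test. RNA had been read as long cDNA molecules from adrenal gland tissue of female B6CASTF1/J mice, an F1 cross, at 14 days of age. There was 1 group with 2 libraries, replicate 2 and replicate 1. The tissue of replicate 2 was described as coming from a single numbered female and that of replicate 1 as coming from 3 females, although each library's own description counts 3 females. Both samples carry the same donor label, and no treatment or mutation is labelled.

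Hepatocytes make most proteins of blood plasma: the carriers albumin, transferrin and transthyretin, the clotting factors, the protease inhibitors of the serpin family and many components of complement. These genes are transcribed at very high rates in liver under factors such as HNF1, HNF4, FOXA and C/EBP proteins. The adrenal gland is not known as a main source of plasma proteins, although the fat and connective tissue around it make some of them, such as complement C3.

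All 37 members were detected in replicate 2 and 35 in replicate 1, and they were far more abundant in replicate 2. The 37 members held 95042 of 946553 gene reads in replicate 2, 10.04% (exact Clopper-Pearson 95% interval 9.98% to 10.1%). In replicate 1 they held 1322 of 1065570 gene reads, 0.124% (0.117% to 0.131%). The share was 80.9 times as large in replicate 2. Over both libraries it averaged 5.08% ± 7.01 (SD, n = 2). All intervals cover counting error only, and reads carry no molecular identifier. In bulk tissue, more cells of a type and more RNA per cell cannot be told apart.

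The proteinase inhibitor genes Serpina1a to Serpina1e encode the mouse forms of alpha-1-antitrypsin, an inhibitor of neutrophil elastase. They lie side by side on chromosome 12 and are near copies, so their coding sequences are shown first, because the assignment of each read to a paralog rests on few bases. Over 1242 coding bases, pairs of paralogs differed at 19 to 46 positions, which is 96.3% to 98.5% identity. In all, 86 positions differed among the paralogs, and 18 of them fell in 1 window of 60 bases. That window, on the minus strand and coding bases 1101 to 1160, was the densest of its length. It lies on mm10 at chr12:103853757-103853816 in Serpina1a, chr12:103728324-103728383 in Serpina1b, chr12:103895094-103895153 in Serpina1c, chr12:103763762-103763821 in Serpina1d and chr12:103947100-103947159 in Serpina1e. Mouse alpha-1-antitrypsins are known to differ most in the reactive loop that docks to the protease. The letters are those of the reference, and the alleles of the F1 cross were not examined. The capitals mark the positions that differ among the paralogs.
Serpina1a-202: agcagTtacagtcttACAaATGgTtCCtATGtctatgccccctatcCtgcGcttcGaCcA
Serpina1b-201: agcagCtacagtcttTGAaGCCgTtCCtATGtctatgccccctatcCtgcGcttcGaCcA
Serpina1c-201: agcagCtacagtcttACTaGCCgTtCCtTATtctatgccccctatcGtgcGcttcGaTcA
Serpina1d-201: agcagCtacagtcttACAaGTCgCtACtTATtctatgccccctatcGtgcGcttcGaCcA
Serpina1e-201: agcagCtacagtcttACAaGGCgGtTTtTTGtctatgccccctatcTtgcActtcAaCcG

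Alternative ends and exons of other members are shown next, because the isoforms described below differ there. In each pair, 30 shared coding bases come before the point of difference and capitals mark bases that the other isoform does not hold. Fgg encodes the gamma chain of fibrinogen, the clot precursor. Its isoforms Fgg-201 (chr3:83014278-83014849) and Fgg-202 (chr3:83014278-83014337) share 1296 coding bases on the plus strand of chromosome 3 and end with 15 and 36 bases of their own. The second keeps the last intron, as the gamma-prime chain known in humans does.
Fgg-201: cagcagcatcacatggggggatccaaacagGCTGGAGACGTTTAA
Fgg-202: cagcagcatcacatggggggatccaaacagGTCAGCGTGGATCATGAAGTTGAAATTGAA

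Fga encodes the alpha chain of fibrinogen. Fga-201 (chr3:83031950-83031993) and Fga-202 (chr3:83031950-83032730) share 1660 coding bases, after which Fga-201 ends within 14 bases and Fga-202 goes on for 710. The longer form corresponds to the extended alpha chain known in humans.
Fga-201: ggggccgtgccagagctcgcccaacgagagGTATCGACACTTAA
Fga-202: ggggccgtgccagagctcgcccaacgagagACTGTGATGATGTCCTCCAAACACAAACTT

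Kng1 encodes kininogen, the precursor of bradykinin. Kng1-202 (chr16:23079022-23081507), of 432 residues, and Kng1-201 (chr16:23079022-23079081), of 661 residues, share 1200 coding bases on the plus strand of chromosome 16. In humans the short and the long kininogen are made by the same choice of last exon.
Kng1-202: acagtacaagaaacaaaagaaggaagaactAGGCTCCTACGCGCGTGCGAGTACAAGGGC
Kng1-201: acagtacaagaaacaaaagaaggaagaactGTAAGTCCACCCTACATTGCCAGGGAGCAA

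Itih4 encodes heavy chain 4 of the inter-alpha-trypsin inhibitors, which bind hyaluronan. The stretches lie on the plus strand of chromosome 14, at chr14:30896741-30897555 for Itih4-202 and Itih4-203 and at chr14:30896741-30897886 for Itih4-204. Itih4-203 has 3 coding bases more than Itih4-202 at the start of an exon, and Itih4-204 lacks 48 bases that Itih4-202 has, of which the first 30 are in capitals.
Itih4-202: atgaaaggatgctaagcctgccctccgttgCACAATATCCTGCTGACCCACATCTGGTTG
Itih4-203: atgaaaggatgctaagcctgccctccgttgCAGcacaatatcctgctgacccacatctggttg
Itih4-204: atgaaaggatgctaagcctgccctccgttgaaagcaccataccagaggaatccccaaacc

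Cp encodes ceruloplasmin, the copper carrier and ferroxidase. Cp-203 and Cp-202 (chr3:19973900-19974891, plus strand) differ in their coding sequence by the same 3 letters.
Cp-203: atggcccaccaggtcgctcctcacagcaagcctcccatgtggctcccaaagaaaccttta
Cp-202: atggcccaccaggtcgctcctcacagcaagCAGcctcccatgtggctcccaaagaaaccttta

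Promoters of members that were high together in replicate 2 follow, as the 250 bases before the start on GRCm38.p6, from the RefSeq promoter table. The promoter table held 28 of the 37 members, and Trf, Ttr, Serpina3k, Hp, Plg, Kng1, Orm1, C4b and Cfb were not matched. Capitals mark matches on either strand to the searched motifs: GTTAAT for the core of an HNF1 site, CAAAGTCCA for HNF4, TTGCNNAA for C/EBP, TGTTTAC for FOXA and TATAAA. The HNF1 core was set after a longer HNF1 motif had been searched. Alb is at chr5:90460620-90460869 on the plus strand, Ahsg at chr16:22891765-22892014 on the plus strand, Fgb at chr3:83049864-83050113 on the minus strand and Serpina1b at chr12:103738190-103738439 on the minus strand.
Alb: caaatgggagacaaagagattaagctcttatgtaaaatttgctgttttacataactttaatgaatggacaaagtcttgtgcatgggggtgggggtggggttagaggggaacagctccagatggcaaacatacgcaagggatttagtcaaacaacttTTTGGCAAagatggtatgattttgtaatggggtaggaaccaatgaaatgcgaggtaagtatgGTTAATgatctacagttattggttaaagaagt
Ahsg: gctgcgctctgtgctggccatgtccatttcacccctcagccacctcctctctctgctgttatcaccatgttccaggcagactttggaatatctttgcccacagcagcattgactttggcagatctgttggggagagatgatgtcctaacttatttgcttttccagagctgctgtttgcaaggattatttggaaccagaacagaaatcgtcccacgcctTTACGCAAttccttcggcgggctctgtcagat
Fgb: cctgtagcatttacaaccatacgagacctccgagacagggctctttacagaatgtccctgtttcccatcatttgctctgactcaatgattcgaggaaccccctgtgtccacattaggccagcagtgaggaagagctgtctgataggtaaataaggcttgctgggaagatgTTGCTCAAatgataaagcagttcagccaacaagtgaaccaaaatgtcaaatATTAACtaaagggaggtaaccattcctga
Serpina1b: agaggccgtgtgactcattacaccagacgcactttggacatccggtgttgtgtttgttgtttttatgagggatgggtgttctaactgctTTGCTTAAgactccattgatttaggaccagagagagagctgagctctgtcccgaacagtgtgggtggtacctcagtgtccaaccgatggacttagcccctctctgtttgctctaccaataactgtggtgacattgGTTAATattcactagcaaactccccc

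Counted from the start in the RefSeq promoter table, the HNF1 core stood at position -32 in Alb, at -29 in Fgb and at -26 in Serpina1b. The gene starts in GENCODE differ from these starts for Alb (chr5:90460897), Ahsg (chr16:22891277) and Serpina1b (chr12:103830373), so the positions depend on the start used. The C/EBP motif stood at -94 in Alb, -32 in Ahsg, -80 in Fgb and -161 in Serpina1b. Of the 28 matched members, 14 held the C/EBP motif, beside 10.8% of 27025 genes in the table. The HNF1 core was held by 13 members (46.4%) and 7.49% of all genes. That core was set after a longer HNF1 motif had been searched, so nothing is read from the difference between these shares. Those 13 include the near copies Serpina1a to Serpina1e, and the 14 with C/EBP include Serpina1b, Serpina1d and Serpina1e. Each paralog was counted on its own, so these shares are not of unrelated promoters. FOXA matched in 2 members (7.14%, beside 3.54%), TATAAA in 5 (17.9%, beside 14.3%) and HNF4 in 0 (beside 0.451%). These matches describe letters in a window and are no binding data.

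The carriers of plasma were the most abundant members. Levels are reads per 1000000 gene reads (CPM). Each read stands for 1 sequenced cDNA molecule whatever its length, so values were not divided by transcript length. Without a molecular identifier, copies of 1 molecule cannot be told apart. Whether long transcripts were recovered as well as short ones was not tested. Transferrin, the iron carrier encoded by Trf on chromosome 9, was read 27362 times in replicate 2, against 294 times in replicate 1, or 28907 CPM in replicate 2, against 276 CPM in replicate 1 (105-fold, 93.4 to 118). Alb, which encodes albumin, had 17770 reads in replicate 2, against 158 in replicate 1, or 18773 CPM in replicate 2, against 148 CPM in replicate 1 (127-fold, 95% counting interval 108 to 149). Ahsg, which encodes fetuin-A, an inhibitor of calcium phosphate deposits, had 10311 reads in replicate 2, against 113 in replicate 1 (103-fold, 85.3 to 125). The intervals of Alb and Ahsg overlap each other, and replicate 2 holds the larger count in all 3 genes.

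Retinol and thyroxine carriers followed. Rbp4, the retinol binding protein, had 4898 reads in replicate 2, against 90 in replicate 1 (61.3-fold, 49.7 to 76.3). Ttr, transthyretin, which carries thyroxine and binds Rbp4 in plasma, had 3453 reads in replicate 2, against 32 in replicate 1 (121-fold, 85.9 to 178). Gc, the vitamin D binding protein, had 2366 reads in replicate 2, against 12 in replicate 1 (222-fold, 127 to 430). Ratios of these carriers thus ranged from 61.3 to 222, and that of Rbp4 was the smallest of the 3.

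Among the clotting genes, Fgg had 2509 reads in replicate 2, against 45 in replicate 1 (62.8-fold, 46.8 to 86.3). Fgb, the beta chain, had 1739 reads in replicate 2, against 18 in replicate 1 (109-fold, 68.6 to 184). Fga had 1090 reads in replicate 2, against 8 in replicate 1 (153-fold, 77.6 to 356). F2, prothrombin, had 1136 reads in replicate 2, against 9 in replicate 1. Plg, the precursor of the clot-dissolving enzyme plasmin, had 330 reads in replicate 2, against 1 in replicate 1. Kng1 had 1939 reads in replicate 2, against 19 in replicate 1. The interval of Fgg did not overlap that of Gc, while it overlapped those of Fga and Fgb.

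Of the antitrypsin paralogs, Serpina1b had 2399 reads in replicate 2, against 15 in replicate 1 (180-fold, 109 to 322). Serpina1c had 1463 reads in replicate 2, against 18 in replicate 1 (91.5-fold, 57.7 to 155). Serpina1d had 1042 reads in replicate 2, against 14 in replicate 1 (83.8-fold, 49.7 to 154). Serpina1a had 911 reads in replicate 2, against 6 in replicate 1 (171-fold, 78.2 to 467). Serpina1e had 162 reads in replicate 2, against 3 in replicate 1 (60.8-fold, 20.4 to 298). Their ratios were 60.8-fold for Serpina1e to 180-fold for Serpina1b, with intervals that overlap. Reads of Serpina1d models that joined exons of Serpina1b numbered 85 in replicate 2 and 2 in replicate 1, and Serpina1e models joined to Serpina1c held 28 reads in replicate 2, against 1 in replicate 1. Counts of single paralogs are uncertain, since reads given whole to another paralog would not show in such joins and were not measured. Those of Serpina3k, Kng1, C4b and Orm1, which also have close copies, may be uncertain too. Serpinc1, antithrombin, had 1512 reads in replicate 2, against 14 in replicate 1, and Serpinf2, the plasmin inhibitor alpha-2-antiplasmin, had 731 in replicate 2, against 8 in replicate 1.

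The inter-alpha-trypsin inhibitor genes Itih1 to Itih4 had 295, 184, 699 and 673 reads in replicate 2, against 1, 4, 4 and 3 reads in replicate 1. Hpx, which binds free haem, had 2170 reads in replicate 2, against 25 in replicate 1. Hp, which binds free haemoglobin, had 1941 reads in replicate 2, against 77 in replicate 1 (28.4-fold, 22.6 to 36.1). The interval of Hp lay below that of Hpx (66.0 to 151), and Hp had the higher level of the pair in replicate 1, 72.3 CPM against 23.5 CPM for Hpx.

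Serpina3k, Ambp, Vtn, Cfb and Hrg were 99.1-fold (Cfb) to 153-fold (Ambp) higher in replicate 2. Serpina3k, an inhibitor of the antichymotrypsin group, had 1907 reads in replicate 2, against 19 in replicate 1. Ambp, which encodes alpha-1-microglobulin and bikunin as 1 precursor, had 1087 reads in replicate 2, against 8 in replicate 1. Vtn, the adhesion protein vitronectin, had 806 reads in replicate 2, against 6 in replicate 1. Cfb, factor B of the alternative complement pathway, had 704 reads in replicate 2, against 8 in replicate 1. Hrg, the histidine-rich glycoprotein, had 358 reads in replicate 2, against 4 in replicate 1.

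5 members differed least. C3, the central complement component, had 529 reads in replicate 2, against 35 in replicate 1 (17.0-fold, 12.1 to 24.7). Cp had 91 reads in replicate 2, against 8 in replicate 1 (12.8-fold, 6.23 to 30.6). Fetub, which encodes fetuin-B, had 149 reads in replicate 2, against 61 in replicate 1 (2.75-fold, 2.03 to 3.77). C4b, complement component 4B, had 136 reads in replicate 2, against 170 in replicate 1, or 144 CPM in replicate 2, against 160 CPM in replicate 1 (0.901-fold, 0.713 to 1.14). Its log2 ratio was -0.15 and turned to 0.099, 0.094 and 0.44 under TMM, DESeq2 and spike-in scaling. Orm1, an acute phase glycoprotein, had 4 reads in replicate 2, against 12 in replicate 1, under the minimum of 20 summed reads (0.375-fold, 0.0882 to 1.24).

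2 members had 0 reads in replicate 1. Spp2, a secreted phosphoprotein, had 157 reads in replicate 2 (at least 58.9-fold higher against a limit of 3 reads in replicate 1). Afp, alpha-fetoprotein, the main plasma protein of the fetal liver, had 29 reads in replicate 2 (at least 10.9-fold higher). The limit of 3 reads is 2.82 CPM in replicate 1 and 3.17 CPM in replicate 2.

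**Figure D1:**
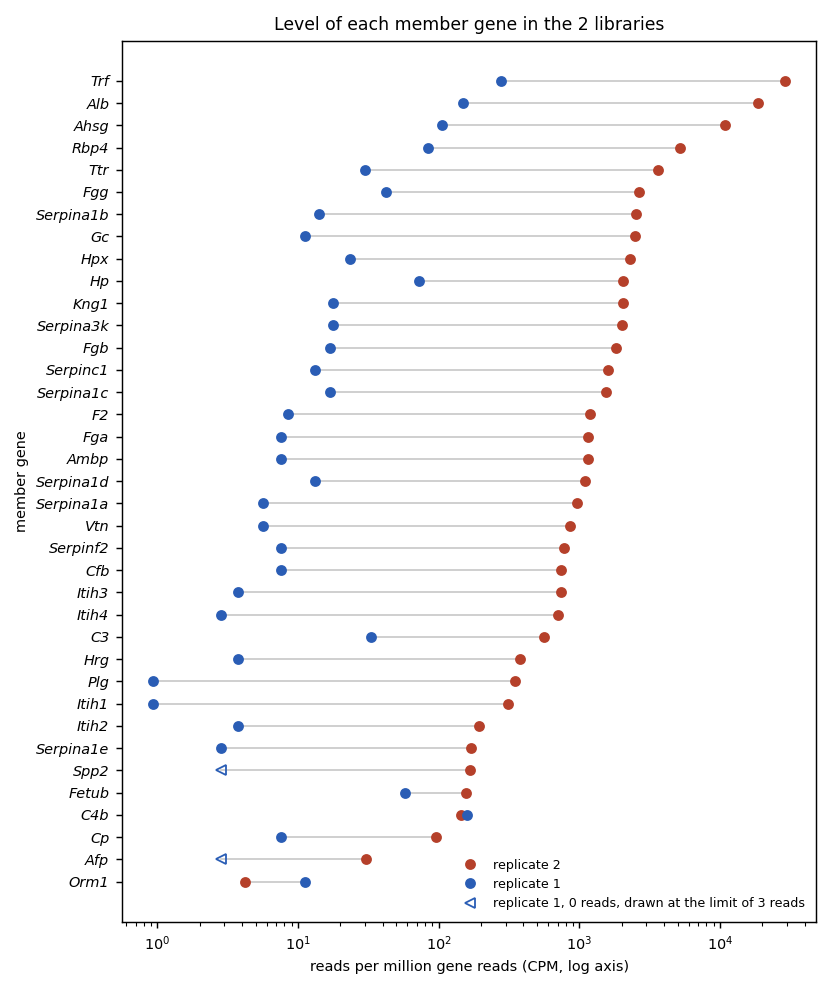
Level of each of the 37 members in CPM (log axis), with replicate 2 in red and replicate 1 in blue. Trf stands at 28907 CPM in replicate 2 and 276 CPM in replicate 1, and only C4b and Orm1 have the red point at or left of the blue one.

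With 36 members measured at 20 or more summed reads, 33 were over 16-fold higher in replicate 2, counting Afp, whose bound is at least 10.9-fold. The measured members' median log2 ratio was 6.72, beside -0.28 over all 9211 genes with that many reads. Of all these genes, 3.31% were over 16-fold higher in replicate 2; since that contrast chose the members, nothing is read from the count. The 3 members under 16-fold were Cp (log2 3.60), Fetub (1.45) and C4b (-0.15), and C3 (4.07) lay just inside. 18 members were among the 100 most abundant genes of replicate 2 and 0 in replicate 1. Across the 37 genes, the CPM of the libraries had a Spearman rho of 0.63, a description over genes that share their libraries.

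For lists outside the members, each gene's reads were set against the library totals by an exact conditional binomial test with Benjamini-Hochberg adjustment over all 9211 genes, which compares the 2 libraries and covers counting error only. The members were chosen because hepatocyte genes were higher in replicate 2, so the counts for other hepatocyte lists describe the same contrast and are no independent support. Over all genes, 8.58% were called higher and 17.9% lower in replicate 2. Of 54 other plasma protein genes, 44 were measured, and 42 of these were called higher and 0 lower. Agt, the angiotensin precursor, had 708 reads in replicate 2, against 9 in replicate 1, and Apoh had 526 in replicate 2, against 2 in replicate 1. Selenop, the selenium carrier, which many tissues make, had 1824 reads in replicate 2, against 276 in replicate 1 (7.44-fold, 6.55 to 8.47). All 28 genes of a list of hepatocyte proteins that are not secreted, mostly enzymes with a few others such as the transporter genes Slc10a1 and Slco1b2, were called higher. Bhmt, of betaine use, had 1304 reads in replicate 2, against 13 in replicate 1, and Hpd, of tyrosine breakdown, 1057 in replicate 2, against 5 in replicate 1. Together the 28 genes took 1.19% of the gene reads of replicate 2, against 0.0704% of those of replicate 1.

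Of 19 hepatocyte transcription factors, 9 were measured, 5 were called higher and 1 lower. Hnf4a had 37 reads in replicate 2, against 0 in replicate 1 (at least 13.9-fold higher), Nr1i3 28 in replicate 2, against 0 in replicate 1 (at least 10.5-fold), Creb3l3 208 in replicate 2, against 1 in replicate 1, Foxa3 80 in replicate 2, against 1 in replicate 1, and Cebpa 188 in replicate 2, against 120 in replicate 1 (1.76-fold, 1.40 to 2.24). Cebpb, which many tissues express, was the lower one, with 1567 reads in replicate 2, against 2880 in replicate 1 (0.613-fold, 0.576 to 0.652). Nr0b2 had 56 reads in replicate 2, against 78 in replicate 1, Zbtb20 19 in replicate 2, against 31 in replicate 1 and Nr1h4 24 in replicate 2, against 24 in replicate 1, and none of these passed the test. Of 12 acute phase genes outside the members, 4 were measured and 3 were called higher: Serpina3m had 247 reads in replicate 2, against 2 in replicate 1, Serpina3n 86 in replicate 2, against 1 in replicate 1, and Lbp, the lipopolysaccharide binding protein, 74 in replicate 2, against 19 in replicate 1.

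Markers of other liver cells were sparse, apart from the list of hepatic erythroid cells, which is given with the next lists. Of 7 Kupffer cell genes, 2 were measured and the rest lay under the minimum of 20 summed reads. Clec4f had 41 reads in replicate 2, against 0 in replicate 1, and Cd5l had 30 in replicate 2, against 0 in replicate 1. Both were called higher, but they reached the minimum through replicate 2 alone, so nothing is read from their direction. The same holds for every listed gene with 0 reads in replicate 1, such as Clec4g, Hnf4a, Nr1i3 and Fabp2. Listed genes with a few reads there, such as Creb3l3, Foxa3, Serpina3m and Serpina3n, also reached the minimum through replicate 2 alone. Nothing is read from the direction of those genes either. Clec4g of liver sinusoidal endothelium had 25 reads in replicate 2, against 0 in replicate 1 and rose, and Stab1 with 17 in replicate 2, against 16 in replicate 1 did not pass. Of the stellate cell list 2 genes rose, Rgs5 (108 reads in replicate 2, against 65 in replicate 1) and Colec11 (27 in replicate 2, against 7 in replicate 1), and Ecm1 fell (212 in replicate 2, against 304 in replicate 1). Of the biliary list only Spp1 was measured, and it fell (77 in replicate 2, against 166 in replicate 1). Of the fetal liver list 3 of 4 rose, with H19 at 613 reads in replicate 2, against 22 in replicate 1 and Gpc3 at 45 in replicate 2, against 23 in replicate 1, while Dlk1 fell (189 in replicate 2, against 546 in replicate 1).

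Genes of the labelled tissue were present in both libraries. All 12 adrenal cortex genes were measured and fell, with Cyp11a1, the first enzyme of steroid synthesis, at 8539 reads in replicate 2 and 22720 in replicate 1, Cyp21a1 at 5110 in replicate 2, against 11998 in replicate 1 and Hsd3b1 at 3577 in replicate 2, against 8617 in replicate 1. Of 10 chromaffin cell genes, 9 fell, with Chgb at 1685 reads in replicate 2, against 4738 in replicate 1, Chga at 1491 in replicate 2, against 4347 in replicate 1 and Th at 661 in replicate 2, against 2168 in replicate 1. All 6 measured skeletal muscle genes rose, with Acta1 at 758 reads in replicate 2, against 30 in replicate 1, Ckm at 477 in replicate 2, against 25 in replicate 1 and Tnnc2 at 240 in replicate 2, against 5 in replicate 1. All 5 measured genes of the hepatic erythroid list fell, with Hba-a1 at 1748 in replicate 2, against 6195 in replicate 1, Hbb-bs at 937 in replicate 2, against 3292 in replicate 1 and Hba-a2 at 470 in replicate 2, against 1689 in replicate 1. Of the adipocyte list 4 of 8 rose, with Cidea at 2223 in replicate 2, against 1979 in replicate 1 and Ucp1 at 1964 in replicate 2, against 1617 in replicate 1, and Fabp4 at 2686 in replicate 2, against 3047 in replicate 1 did not pass. Of the macrophage list, C1qb rose (39 in replicate 2, against 21 in replicate 1) and Lyz2 (67 in replicate 2, against 48 in replicate 1) and C1qc (37 in replicate 2, against 24 in replicate 1) did not pass; Fabp2 of the intestine list rose with 31 reads in replicate 2, against 0 in replicate 1. Of the pancreas list only Cela1 was measured (25 in replicate 2, against 46 in replicate 1, not past the test), and no gene of the kidney tubule list was. Some of these counts turned on the setting. Under TMM, DESeq2 and spike-in scaling, 11 cortex genes each and 7, 7 and 6 chromaffin genes were called lower, and 7, 7 and 8 adipocyte genes and 4 macrophage genes each were called higher. Ecm1 was not called under any of these, nor was Spp1 under spike-ins. If a coefficient of variation of 0.2 between libraries is assumed, 4 cortex and 5 chromaffin genes were called lower, 41 other plasma protein genes, 26 of the 28 hepatocyte genes that are not secreted, 4 hepatocyte factors, 2 fetal liver genes and 0 stellate, adipocyte and macrophage genes higher, and Cebpb and Spp1 were not called. With Known transcripts only, fewer genes were measured, 10 of 12 cortex genes and 7 of 8 measured chromaffin genes were called lower, 37 of 39 other plasma protein genes and 2 of 4 hepatocyte factors were called higher, and Ecm1 and C1qb were not called. The part of these other tissues in the members' difference was not tested.

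How much of each transcript the reads span bears on isoform counts. Models were classed against the annotation: Known models match an annotated chain of introns, incomplete models (ISM) hold part of it, NIC models combine known splice sites in a way the annotation lacks, NNC models have an unannotated splice site, and Genomic models follow no annotated chain. Of member reads, 76.5% were Known in replicate 2 and 62.6% in replicate 1 (interval 59.9% to 65.2%), and 19.4% were ISM in replicate 2, against 28.0% in replicate 1. Among other genes ISM took 9.61% in replicate 2 and 10.7% in replicate 1. In replicate 2, Alb held 6679 and Ahsg 5441 of the 18450 ISM member reads. Without the 3 most abundant members, ISM took 14.4% of member reads in replicate 2 and 29.2% in replicate 1. Reads on models with both ends within 50 bases of annotated ends were 80.4% in replicate 2 and 66.4% in replicate 1, beside 86.6% in replicate 2 and 84.5% in replicate 1 among other genes. The pooled Known and ISM shares of members in replicate 1, and their share with both annotated ends, depend partly on C4b. It held 170 of the 1322 member reads there, 27 of them Known and 114 ISM, but 136 of 95042 in replicate 2. Known models have annotated ends by construction, and 91.4% of ISM member reads in replicate 2 and 95.4% in replicate 1 start on the start of an annotated exon, so where a cDNA broke off is not resolved by base.

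**Figure D2:**
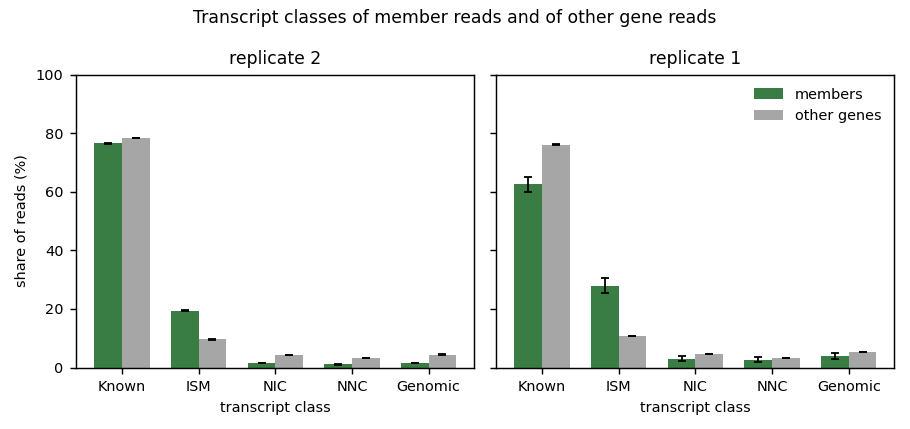
Share of reads in each transcript class, for members (green) and all other annotated genes (grey), with replicate 2 on the left and replicate 1 on the right and exact 95% intervals. ISM is 19.4% of member reads in replicate 2 and 28.0% in replicate 1, beside 9.61% in replicate 2 and 10.7% in replicate 1 for other genes. Without the 3 most abundant members, which are not drawn apart, ISM is 14.4% in replicate 2 and 29.2% in replicate 1. C4b held 170 of the 1322 member reads in replicate 1, 114 of them ISM.

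Single short models held much of the ISM reads. An Alb model of the last 8 exons, 1153 nt, held 5019 of 17770 reads in replicate 2 (28.2%) and 45 of 158 in replicate 1 (28.5%, 21.6% to 36.2%). A 1-exon Ahsg model of 647 nt held 50.6% of reads in replicate 2 and 59.3% in replicate 1 (49.6% to 68.4%). A 1-exon Fgg model of 215 nt held 38.5% in replicate 2 and 48.9% in replicate 1 (33.7% to 64.2%). A 1-exon Kng1 model of 212 nt held 560 of 1939 reads in replicate 2 and 10 of 19 in replicate 1, and a 2-exon Itih3 model held 206 of 699 in replicate 2 and 1 of 4 in replicate 1. For Serpinc1 a longer 7-exon model of 1854 nt, without the first annotated junction, held 1258 of 1512 reads in replicate 2 and 10 of 14 in replicate 1. No Serpinc1 read matched a Known model. Rbp4 had a Genomic model of 2 nt with 1007 of 4898 reads in replicate 2 and 29 of 90 in replicate 1, a length at which the model describes no transcript. For Alb, Ahsg, Fgg and Fetub the intervals of the libraries overlap, and for Rbp4 and C4b they do not.

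**Figure D3:**
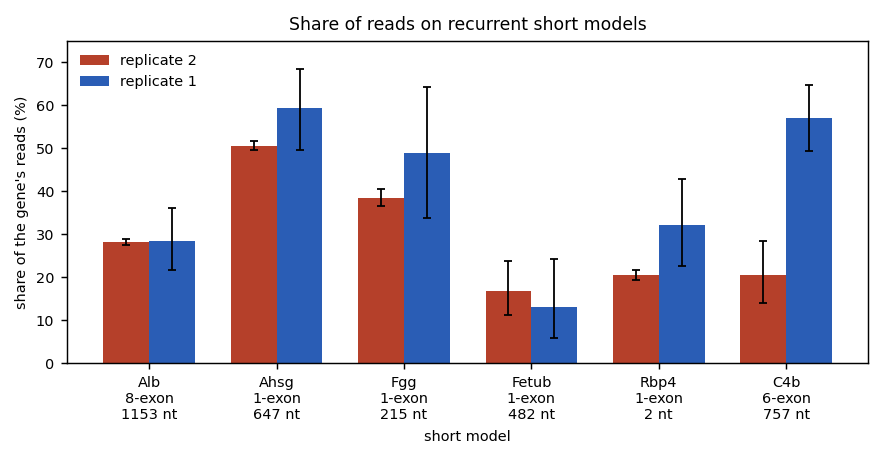
Share of a gene's reads on a recurrent short model, for genes with at least 40 reads in replicate 1, with replicate 2 in red left of replicate 1 in blue and exact 95% intervals. Alb stands at 28.2% in replicate 2 and 28.5% in replicate 1, and C4b differs most, at 20.6% in replicate 2 and 57.1% in replicate 1.

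Most members had 1 leading spliced isoform. Of 35 members with at least 20 reads on spliced Known, NIC or NNC transcripts, the leading chain of introns held a median of 94.3% of such reads (range 32.8% to 99.4%), at least 90% in 24 and an annotated chain in 33. Both libraries were summed here, and most of these members had fewer than 20 such reads in replicate 1. The values therefore describe mainly replicate 2. The members without an annotated leading chain were Itih1, whose leading 20-exon NIC chain held 198 of 257 reads in replicate 2 and 0 of 1 in replicate 1, and Itih3, with a 21-exon NIC chain at 377 of 437 in replicate 2 and 1 of 3 in replicate 1. The Itih3 chain lacks an exon of 3 bases that the annotation has, and whether the aligner could place so short an exon was not tested.

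A second isoform held at least 10% in 4 members, Itih4, Cp, Serpina1e and C4b. Itih4-202 had 259 reads in replicate 2, against 2 in replicate 1, Itih4-203 245 in replicate 2, against 0 in replicate 1 and Itih4-204 69 in replicate 2, against 0 in replicate 1, so Itih4-202 and Itih4-203, which differ by the 3 bases shown above, were close in number. Cp-203 had 30 reads in replicate 2, against 0 in replicate 1 and Cp-202 14 in replicate 2, against 0 in replicate 1. Serpina1e-201 had 114 reads in replicate 2, against 2 in replicate 1, and the second chain, a join to Serpina1c, 15 in replicate 2, against 0 in replicate 1. Below that share, Fgg-202 had 122 reads in replicate 2, against 3 in replicate 1, beside 1222 in replicate 2, against 16 in replicate 1 for Fgg-201, a share of 9.03% over both. Fga-202 had 59 reads in replicate 2, against 0 in replicate 1 beside 963 in replicate 2, against 7 in replicate 1 for Fga-201. Kng1-201 had 94 in replicate 2, against 0 in replicate 1 beside 1182 in replicate 2, against 7 in replicate 1 for Kng1-202, a share of 6.92%.

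Isoform usage was tested between the libraries with the gene totals held fixed, by a Fisher or permutation test with 100000 draws and Benjamini-Hochberg adjustment. The test sets 1 library against 1 and covers counting error only, and since the totals of the same libraries chose the members, its independence of that choice was not tested. Of 2709 genes, 56 (2.07%) were called, and of 8 members tested 2 were called, C4b and Rbp4. The others, Alb, Trf, Ahsg, Ttr, Hp and Fetub, had adjusted p from 0.899 to 1, which does not show that their usage was alike. With ISM models counted, 1.96% of 3323 genes were called, and of 11 members C4b alone was called.

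C4b differed in which part of the gene its reads covered. The annotated 41-exon form C4b-201, of 1738 residues, had 29 reads in replicate 2, against 0 in replicate 1, which allows a share of up to 2.15% there. A 6-exon ISM model of 757 nt (mm10 chr17:34728380-34729906, minus strand) had 28 of 136 reads in replicate 2 (20.6%, 14.1% to 28.4%) and 97 of 170 in replicate 1 (57.1%, 49.3% to 64.6%). The annotated 2-exon C4b-203 had 14 reads in replicate 2, against 27 in replicate 1 and an unannotated 5-exon model 8 in replicate 2, against 16 in replicate 1. Models that begin at the start of the 6-exon model or downstream held 63 reads in replicate 2 and 162 in replicate 1, and models that begin upstream held 73 reads in replicate 2 and 8 in replicate 1. The shift of 50.5% of the reads between spliced forms had an adjusted p of 0.00107 by the permutation test, from the smallest p the draws can give. C4b lies beside Cyp21a1, a steroid 21-hydroxylase gene, and in humans a promoter inside an intron of a C4 gene is known to start short adrenal transcripts. Whether the short C4b models here begin at such a promoter or are incomplete cDNA was not tested.

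**Figure D4:**
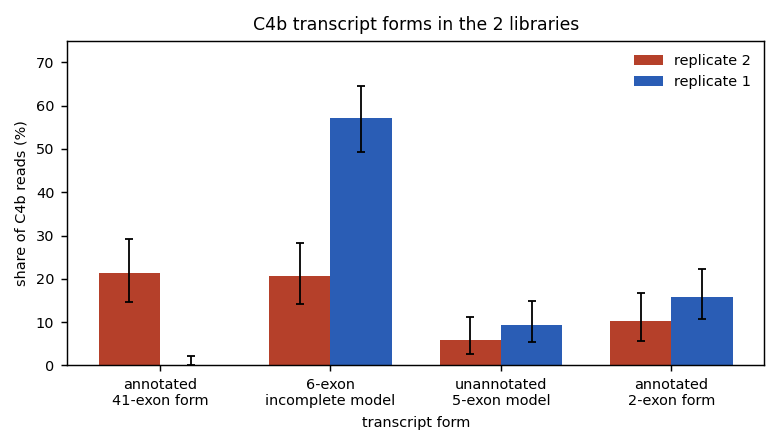
Share of C4b reads on the main transcript forms, with replicate 2 in red left of replicate 1 in blue and exact 95% intervals. The 41-exon form held 21.3% in replicate 2 and 0% in replicate 1, and the 6-exon model 20.6% in replicate 2 and 57.1% in replicate 1.

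Rbp4-202, of 201 residues, had 3588 of 3725 spliced reads in replicate 2 (96.3%) and 51 of 58 in replicate 1 (87.9%). Rbp4-201, which has 132 more coding bases at its 5′ end, had 24 (0.644%) in replicate 2 and 5 (8.62%) in replicate 1. The adjusted p of the permutation test was 0.0219, and with ISM models counted it was 0.0583, so that call was lost there.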

How the data were processed

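Each library came with a deposited table of counts of whole long reads per transcript model and a set of transcript models, on mm10 with GENCODE M21, per the file headers and readmes. Aligner, version of the annotation program and read filters: not given in the sources used here. Per the labels, RNA was spiked with Ambion mix 1 (ERCC) and Lexogen set 4. Counts of all models of a gene were summed and divided by the reads in annotated genes without spike-ins (946553 in replicate 2, 1065570 in replicate 1; 991731 in replicate 2 and 1143111 in replicate 1 with spike-ins and unannotated models). Folds are plain ratios of CPM and log2 ratios have 0.5 reads added; bounds use 3 reads per library. Gene lists outside the members were tested by an exact conditional binomial test, and isoform usage by Fisher's exact or a permutation test (scipy 1.17.1, numpy 2.4.6), with Benjamini-Hochberg adjustment at 0.05. Alternatives used edgeR 4.0.16 and DESeq2 1.42.0 scaling factors, and edgeR's exact test with an assumed coefficient of variation of 0.2. In data simulated for the gene test with counting error only and 4-fold changes, 168 of 188 changed genes were recovered and 6 unchanged genes were called. The simulation held no variation between libraries, so it gives no rate of false calls where libraries vary. The members, the gene lists and the rule for named genes were chosen with earlier results of these data known. Full values were given for the 8 members with most reads, the 5 with the smallest ratio, those under 20 reads, Afp and the Serpina1 paralogs, and of each other list for the 3 genes with most reads, of which 1 enzyme is not reported here. C5, listed under another symbol in the annotation, was not matched.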

Additional observations from a re-analysis of the deposited data

Results flagged for a closer look

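Reads on unannotated models on the strand opposite to the members were not used in any comparison above. They numbered 81 in replicate 2 and 12 in replicate 1, where a count of 0 allows up to 3, which is 0.0852% of the members' own reads in replicate 2 and 0.908% in replicate 1. In replicate 2 Alb had 28 such reads, Ttr 15, Hpx 9, Kng1 7, Plg 5 and Cp 4. Of the members, Kng1 alone had any in replicate 1, namely 12, so that its opposite-strand reads were not scarcer there, while its own reads were 1939 in replicate 2 and 19 in replicate 1. Spliced reads made up 7 of the 81 and 11 of the 12. At Kng1 these models share an intron with models of the other library. Whether the library protocol keeps the strand is not given in the sources used here.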

How the results depend on the processing

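No paired analysis was possible because there is 1 group of 2 libraries; leaving either out leaves no ratio. Another scaling moves every gene by the same amount: TMM gave the members a median log2 ratio of 6.97, DESeq2 factors 6.96 and spike-ins 7.30, beside all-gene medians of -0.03, -0.04 and 0.31, and 6.90 with Known transcripts only. An alternative chosen after seeing the data, with the members at 0 reads set at their bound, gave 6.69. C4b turned to 0.099 (TMM), 0.094 (DESeq2) and 0.44 (spike-ins). Over all genes, 790 were higher and 1646 lower, against 1093 and 643 under TMM, 1075 and 656 under DESeq2, 2071 and 170 under spike-ins and, if a coefficient of variation of 0.2 is assumed, 446 and 67. Under that assumption 9 of 22 adrenal genes were lower instead of 21. The members' share was 9.58% in replicate 2 and 0.116% in replicate 1 of all reads, 9.82% in replicate 2 and 0.102% in replicate 1 of Known reads, and 4.18% in replicate 2 and 0.0710% in replicate 1 without the 3 most abundant members. The leading isoform's median share was 81.8% over all reads of a gene. The Known share was 82.9% in replicate 2 as a median over members, and 78.0% in replicate 2 and 56.7% in replicate 1 without the 3 most abundant. With ISM models counted 1 member passed the isoform test instead of 2. In replicate 1, 17 members had under 10 reads, which limits their ratios.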
